A study of Mus musculus with 23 samples.

Results

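The genes described here are 10 members of the circadian clock and its output: Arntl, Npas2, Clock, Per1, Per2, Per3, Cry1, Nr1d1, Nr1d2 and Dbp. They were taken by gene symbol from the 18512 symbols of the count files, and all 10 were present and passed the filter on low counts. RNA-seq measured them in the pancreas head of 23 C57BL/6 mice, of 6 to 8 weeks of age and of both sexes. The baseline pancreas came from 4 female and 4 male non-injured mice. The other mice had received caerulein, a peptide that overstimulates the acinar cells and causes acute pancreatitis, at 50 µg/kg in 8 hourly intraperitoneal injections on each of 2 consecutive days. Their tissue was collected at day 7 (4 females, 4 males) or day 14 post-injury (3 females, 4 males). All mice lived on a light-dark cycle with free access to chow. The hour at which each pancreas was removed, and whether the baseline mice had received any injection, are not given in the sources used here. The hour of collection can therefore not be told apart from sex or time point.

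The clock is a loop of transcription factors that runs in most cells, the acinar and islet cells of the pancreas included. ARNTL (also called BMAL1) pairs with CLOCK, or with its relative NPAS2, and this pair switches on genes that carry an E-box, among them the Per and Cry genes, Nr1d1, Nr1d2 and Dbp. PER and CRY proteins accumulate and inhibit the pair that made them. NR1D1 and NR1D2 (the REV-ERB receptors) repress Arntl, Npas2 and Cry1 through ROR elements, and DBP binds D-boxes, which are found in Per genes. In mouse tissues Arntl transcripts are for this reason high when those of Nr1d1 and Dbp are low, and the reverse, and light and meal times set the hour at which each peak falls.

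The start regions of the members were read from RefSeq (GRCm38.p6, the same assembly as the mm10 build of the files), as the 250 bases before each annotated start. Windows were found for 9 of the 10 members, 13 windows in all, since some genes have several starts; no window was found for Per2. The letters searched on both strands were the E-box CACGTG, the related CACGTT, the D-box TTATGTAA or TTACGTAA, the ROR element TAGGTCA or TGGGTCA, and the cAMP element TGACGTCA. These 4 windows are shown because they are the members' windows that hold any of these letters, given in capitals, 5′ to 3′ on the strand of the gene:
Per1, chr11:69098699-69098948, plus strand: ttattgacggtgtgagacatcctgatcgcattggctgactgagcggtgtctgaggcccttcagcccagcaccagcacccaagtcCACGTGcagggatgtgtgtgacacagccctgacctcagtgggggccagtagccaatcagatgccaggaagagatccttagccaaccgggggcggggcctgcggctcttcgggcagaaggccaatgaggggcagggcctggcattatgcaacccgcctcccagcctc
Per3, chr4:151044666-151044915, minus strand: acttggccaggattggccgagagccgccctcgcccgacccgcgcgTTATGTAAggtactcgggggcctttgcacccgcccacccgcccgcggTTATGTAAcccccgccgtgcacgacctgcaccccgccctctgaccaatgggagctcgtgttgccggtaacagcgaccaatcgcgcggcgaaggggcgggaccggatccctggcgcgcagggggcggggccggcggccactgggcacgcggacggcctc
Cry1, chr10:85185055-85185304, minus strand: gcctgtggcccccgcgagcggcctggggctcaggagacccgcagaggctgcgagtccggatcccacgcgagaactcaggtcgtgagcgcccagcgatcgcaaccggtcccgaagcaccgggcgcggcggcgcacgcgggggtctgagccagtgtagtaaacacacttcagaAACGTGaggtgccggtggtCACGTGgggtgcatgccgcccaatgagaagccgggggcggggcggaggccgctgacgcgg
Nr1d1, chr11:98775378-98775627, minus strand: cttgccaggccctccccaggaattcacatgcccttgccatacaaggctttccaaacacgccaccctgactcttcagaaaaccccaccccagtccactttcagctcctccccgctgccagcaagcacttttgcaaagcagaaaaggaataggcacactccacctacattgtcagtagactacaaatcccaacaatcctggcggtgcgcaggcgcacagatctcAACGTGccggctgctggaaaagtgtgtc
The Per3 window held 2 D-boxes, 205 to 198 and 158 to 151 bases before the start, and D-box letters stood in 0.931% of all 32851 windows of this length. The Per1 window held an E-box (166 to 161 bases before the start) and the Cry1 window an E-box (60 to 55) and the related letters on the other strand (79 to 74), as did the Nr1d1 window (28 to 23). E-boxes stood in 6.02% of all windows, the related letters in 3.85%, ROR elements in 5.38% and cAMP elements in 1.55%. The Per1 window lies within the first intron of a longer annotated transcript of the gene. A match of letters is a description and no measure of binding.

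Total counts ranged from 7059890 to 9567446 per mouse, and the acinar markers were the most abundant of 8 lists of cell type markers in every mouse (mean log2 CPM between 12.1 and 13.4; CPM are counts scaled to library size). Ddx3y, Eif2s3y, Kdm5d and Uty, which lie on the Y chromosome, had 0 counts in all females and at least 54 in every male. Xist, the transcript that silences an X chromosome, had 3861 to 8809 counts in 10 of the 11 females and 0 to 4 in the males, but baseline female 4 had 2. Its label was kept. Some results that rest on this mouse are also given without it, and the others only with it. Values below are normalised read counts, which are counts scaled to a common library size with TMM factors. In whole tissue, fewer cells of a type and less RNA per cell cannot be told apart.

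Nr1d2 and Clock had the highest levels per length and Npas2 the lowest. Over the 23 mice, the RPKM, which are counts divided by library size and exon length, averaged 8.68 for Nr1d2 and 8.43 for Clock. The 3 next levels were 2.99 for Nr1d1, 2.31 for Cry1 and 2.23 for Arntl. Then came Dbp (2.18), Per1 (1.26), Per2 (1.02), Per3 (0.783) and Npas2 (0.300). Each pair of neighbours in this order overlapped in its range over the mice. For Clock and Nr1d1 the overlap was narrow, with a lowest RPKM of 6.23 for Clock and a highest of 6.48 for Nr1d1. Levels of different genes were not tested against each other within mice. Dbp shared 539 of its 2993 exonic bases with Sphk2 on the opposite strand, and Nr1d1 shared 263 of 3077 with Thra. The library kit kept the strand, but the strand setting of the counting is not given in the sources used here.

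Most members varied greatly between mice of the same group, Clock and, at baseline, Per2 being the exceptions. Arntl, which encodes a partner of CLOCK and NPAS2, ranged from 23.95 to 246 normalised counts over the 23 mice. Its values at baseline were 243, 199, 119 and 96.6 in the females and 177, 203, 201 and 102 in the males. At day 7 they were 203, 158, 202 and 75.0 in the females and 164, 78.4, 26.7 and 23.95 in the males. At day 14 they were 223, 221 and 246 in the females and 99.6, 106, 66.6 and 112 in the males. The sexes overlapped at baseline and at day 7 and were separate at day 14, where every female was above every male. The lowest values of the whole series were those of day 7 males 15 and 16.

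Dbp, the D-box factor, gave close to the mirror image of Arntl. Its values at baseline were 9.35, 16.4, 40.5 and 37.6 in the females and 12.8, 21.2, 11.2 and 88.0 in the males, in the same order of mice as for Arntl. At day 7 they were 10.6, 20.7, 10.7 and 78.6 in the females and 18.3, 69.3, 208 and 279 in the males. At day 14 they were 19.5, 10.4 and 12.9 in the females and 76.3, 61.1, 133 and 57.6 in the males. The mouse with the highest Dbp, day 7 male 16, had the lowest Arntl of all 23, and day 7 male 15 ranked next on both. The ratio of Dbp to Arntl ran from 0.0385 in baseline female 1 to 11.6 in day 7 male 16.

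**Figure D1:**
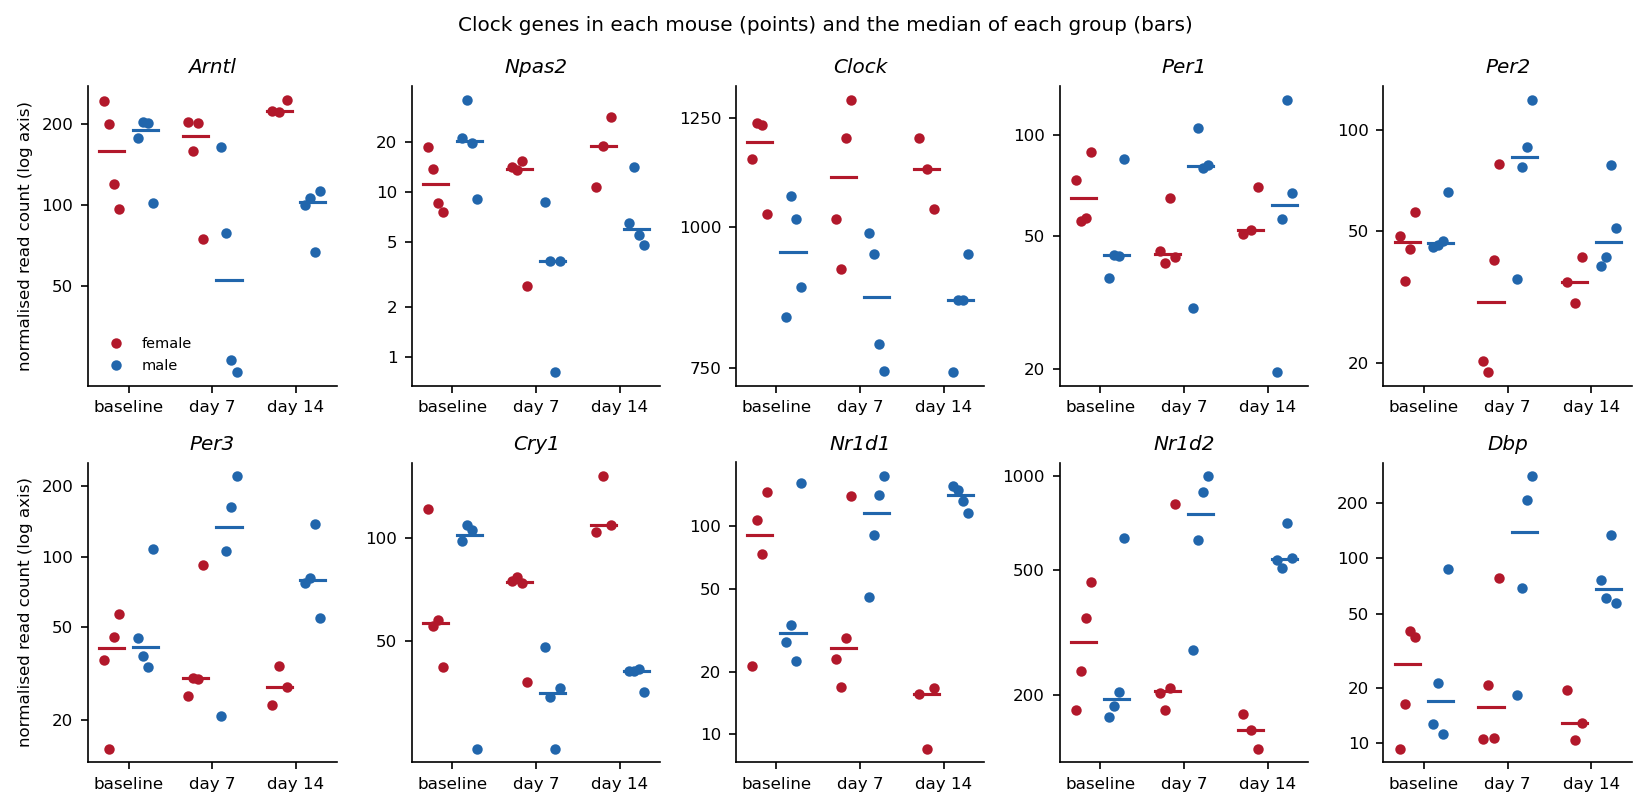
Normalised read counts (log axis) of the 10 clock genes by time point; each point is a mouse (red, female; blue, male) and each bar the median of its group. At day 14 the females and males are apart for Arntl, Clock, Per3, Cry1, Nr1d1, Nr1d2 and Dbp, while at baseline they overlap for all 10.

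The repressors Nr1d1 and Nr1d2 followed Dbp, and Nr1d1 had the wider range of the pair. Nr1d1 was at 21.4, 107, 73.6 and 145 in baseline females and at 27.7, 33.3, 22.5 and 161 in baseline males. At day 7 it was at 22.9, 16.8, 29.1 and 139 in females and at 45.3, 90.6, 141 and 173 in males. At day 14 it was at 15.6, 8.51 and 16.6 in females and at 155, 149, 132 and 115 in males, so that the lowest male was far above the highest female. Nr1d2 ran from 135 to 999 over all mice, with 135 to 174 in day 14 females and 511 to 710 in day 14 males.

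Cry1, whose protein inhibits the activating pair and whose own gene is repressed by NR1D1, followed Arntl rather than the Per genes. Its values at baseline were 122, 55.4, 57.7 and 41.9 in females and 98.1, 109, 105 and 24.3 in males. At day 7 they were 74.8, 77.1, 73.7 and 37.9 in females and 47.9, 34.3, 24.2 and 36.4 in males. At day 14 they were 104, 151 and 109 in females and 40.9, 40.8, 41.5 and 35.5 in males, again without overlap. Npas2, the relative of Clock, had few reads (1 to 31 counts per mouse), so counting error alone is large for it. Its normalised counts spanned 7.51 to 36.3 in baseline mice, 0.808 to 15.5 in day 7 mice and 4.80 to 28.6 in day 14 mice.

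Among the Per genes, which encode the inhibitors that pair with CRY, Per3 had the widest range and Per1 the least tie to the others. Per3 spanned 15.1 to 108 in baseline mice (median 41.3), 20.9 to 221 in day 7 mice (median 61.3) and 23.4 to 138 in day 14 mice (median 54.8). Per2 spanned 35.3 to 65.2 in baseline mice (median 45.9), 18.8 to 124 in day 7 mice (median 59.2) and 30.3 to 78.6 in day 14 mice (median 41.5). Per1, which also answers to acute signals such as cAMP and glucocorticoids, spanned 37.3 to 89.1 in baseline mice (median 55.9), 30.5 to 105 in day 7 mice (median 54.9) and 19.5 to 128 in day 14 mice (median 56.1). The lowest and the highest Per1 values of the whole series, 19.5 and 128, were both those of day 14 males. Clock itself ran only from 743 to 1299 normalised counts, a 1.75-fold range, against 10.3-fold for Arntl, 20.4-fold for Nr1d1 and 29.8-fold for Dbp.

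The phase relation asked which members rise and fall together from mouse to mouse. After removal of the time point means, Arntl, Npas2, Cry1 and Clock correlated positively with each other, as did Nr1d1, Nr1d2, Dbp and the Per genes, and all 24 correlations between these sets were negative. The division into these sets was made with the values known. Each of the 45 pairs was computed over the 23 mice, over the 16 mice of baseline and day 7, over all mice with the 6 group means removed, and within the 8 mice of baseline (with and without female 4) and the 8 of day 7, which makes 270 relations. Permutation p-values of these relations were not adjusted for their number. The median absolute Pearson r was 0.72 over the 23 mice, and the first principal component of the 10 scaled members held 72.7% of their variance.

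The closest pair was Arntl with Dbp. Pearson's r was -0.96 and Spearman's rho -0.95 over the 23 mice, and both had a p of 1e-05 by permutation of mice within time points, the smallest that 100000 permutations can give. Without the 2 mice farthest from the median of Arntl, r was still -0.96. Within baseline (n = 8) r was -0.89 (exact permutation p = 0.00476) and rho -0.76 (exact p = 0.0368), with r at -0.86 without the 2 farthest mice. Without baseline female 4 (n = 7) r was -0.93 (exact permutation p = 0.00615) and rho -0.75 (exact p = 0.0663), and r fell to -0.41 when the 2 farthest of these 7 were also left out, so that the relation within baseline then rested on those 2. Within day 7 (n = 8) r was -0.99 (exact permutation p = 2.5e-05, the smallest possible) and rho -1 (exact p = 5e-05). At day 14 the sexes formed separate clusters of 3 and 4 mice, too few for a correlation within either, and no r is given within that time point.

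Across all genes, the slope of each gene on Arntl was tested with edgeR, with the time point in the model. A slope is the log2 change of a gene per log2 unit of Arntl. Of 12499 other genes, 0.288% had a positive and 0.16% a negative slope past an adjusted p of 0.05, and of the 9 other members 2 were positive and 5 negative. Dbp had the smallest p of all genes, with a slope of -1.59 (SE 0.09, edgeR adjusted p = 9.11e-12). Per3 followed with a slope of -1.08 (SE 0.09, edgeR adjusted p = 6.09e-08), the third smallest p of all genes. The slopes of Nr1d2 (-0.99, SE 0.11), Nr1d1 (-1.24, SE 0.21) and Per2 (-0.61, SE 0.09) also passed. Npas2 (1.06, SE 0.16) and Cry1 (0.70, SE 0.12) were the members that rose with Arntl. Clock (0.17, SE 0.05) and Per1 (-0.33, SE 0.13) did not pass, with edgeR adjusted p-values of 0.174 and 0.405.

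**Figure D2:**
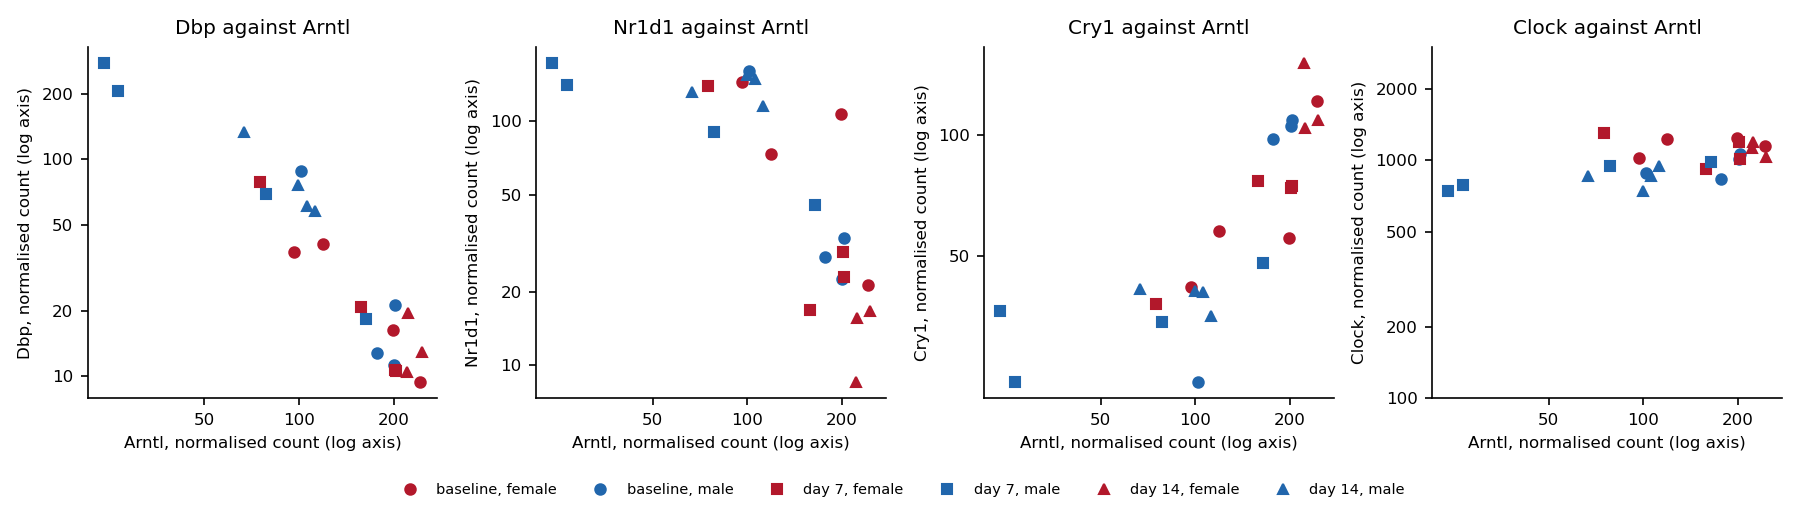
Normalised read counts of Dbp, Nr1d1, Cry1 and Clock (vertical, log axes) against Arntl (horizontal, log axis); each symbol is a mouse, red for females and blue for males, with circles for baseline, squares for day 7 and triangles for day 14. Dbp falls in a single band as Arntl rises (r = -0.96 after time point means are removed), Cry1 rises, and Clock stays between 743 and 1299.

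When Dbp took the place of Arntl, 0.168% of genes had a positive and 0.24% a negative slope, and of the 9 members 4 were positive and 3 negative. The positive members were Nr1d1 (0.83, SE 0.12), Per3 (0.67, SE 0.06), Nr1d2 (0.63, SE 0.05) and Per2 (0.37, SE 0.06). The negative members were Npas2 (-0.61, SE 0.10), Arntl (-0.59, SE 0.04) and Cry1 (-0.47, SE 0.06). Clock and Per1 again did not pass (edgeR adjusted p = 0.216 and 0.393). The slopes on Arntl and on Dbp come from the same mice and are not separate evidence.

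Since sex divided the day 14 mice, the slopes were also fitted with the mean of each of the 6 groups of time point and sex removed. Then 4 members passed on Arntl (Per2, Per3, Nr1d2 and Dbp), as 0.128% of all genes did, 5 passed on Dbp (0.08% of all genes), and the slopes of Npas2, Cry1 and Nr1d1 on Arntl kept their direction at 1.005, 0.51 and -1.03 (edgeR adjusted p = 0.0877, 0.352 and 0.108). The correlation of Arntl with Dbp was -0.94 on these values (permutation p = 3e-05; rho -0.92, permutation p = 4e-05). Without the day 14 mice, 5 members passed on Arntl (0.259% of all genes) and 7 on Dbp (0.167%).

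Within the members that moved together, the mice were not ordered in the same way by every gene. Baseline female 2 had an Nr1d1 of 107, which ranked 10 of 23, while its Dbp of 16.4 ranked 16 and its Per3 of 15.1 was the lowest of the series. Its ratio of Dbp to Nr1d1 was 0.153, the lowest of all mice. The highest ratios were 1.61 in day 7 male 16 and 1.48 in day 7 male 15, the mice with the lowest Arntl. At baseline Nr1d1 was tied most closely to Cry1 (r = -0.95, exact permutation p = 0.000248, n = 8; rho -0.93, exact p = 0.00223), and r was -0.96 without the 2 farthest mice and -0.95 without female 4 (exact permutation p = 0.00198; rho -0.89, exact p = 0.0123). At day 7 Nr1d1 and Nr1d2 ordered the 8 mice identically (rho 1, exact permutation p = 5e-05; r = 0.99, exact p = 7.4e-05).

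Over the 23 mice, Per1 and Clock stood apart from the other 8. They had the largest weights on the second component of the members (0.75 for Per1 and 0.55 for Clock), which held 10.7% of the variance. Per1 was closest to Per2 (r = 0.57, permutation p = 0.00591; rho 0.68, permutation p = 0.00121; 0.60 without the 2 farthest mice). Its r with Arntl over the 23 mice was -0.42 (permutation p = 0.061; rho -0.48, permutation p = 0.0271). Over the 16 mice of baseline and day 7 the r of Per1 with Arntl was -0.58 (permutation p = 0.0378). The rho was -0.57 there (permutation p = 0.0275), and r was -0.49 without the 2 farthest mice. Clock had an r of 0.60 with Arntl (permutation p = 0.00651; rho 0.59, permutation p = 0.00625), which was 0.43 without the 2 farthest mice and 0.36 with the 6 group means removed (permutation p = 0.197; rho 0.40, permutation p = 0.139).

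**Figure D3:**
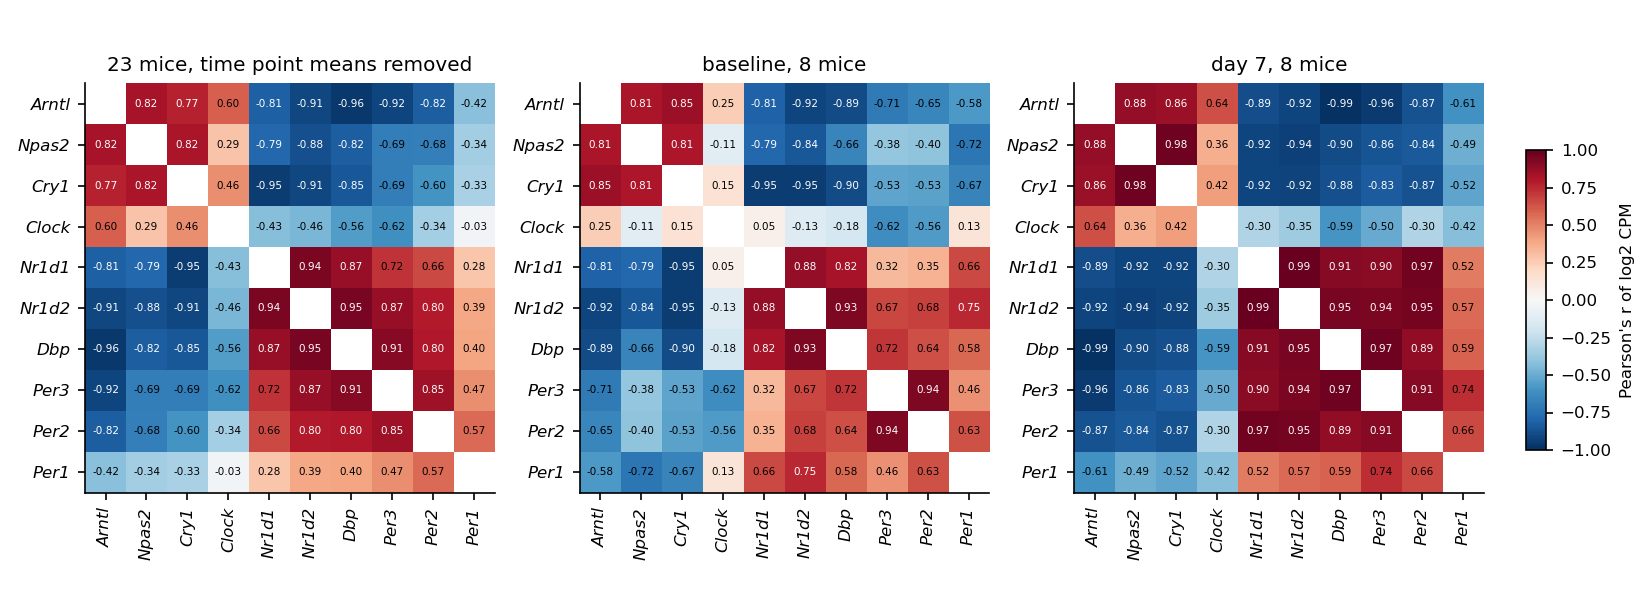
Pearson's r of log2 CPM for each pair of clock genes over the 23 mice after removal of time point means (left), and within the 8 mice of baseline (middle) and of day 7 (right); red is positive, blue negative and the diagonal is blank. The upper left block (Arntl, Npas2, Cry1, Clock) and the lower right block (Nr1d1, Nr1d2, Dbp and the Per genes) are opposed in sign over the 23 mice, where the rows of Clock and Per1 are the palest; at baseline the signs of Clock with Npas2 (-0.11), Nr1d1 (0.05) and Per1 (0.13) are turned.

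The genes most like Arntl and Dbp were sought among all genes by r over the 23 mice. Among the genes most opposed to Arntl were Dbp (-0.96), Tef (-0.96), Per3 (-0.92) and Nr1d2 (-0.91), of which 3 are members. The genes with the highest r to Arntl were Rhobtb1 (0.89), Ypel2 (0.86), Nfil3 (0.85), Dnajc10 (0.84) and Zfp462 (0.84). Among those with the highest r to Dbp were Tef (0.98), Nr1d2 (0.95), Per3 (0.91) and Nr1d1 (0.87). TEF is a D-box factor of the same family as DBP, and NFIL3 is the repressor that competes for the D-box. The median absolute r of all genes with Arntl was 0.17. Since these genes were chosen for their likeness, the values are a description.

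Of a list of 17 other clock genes, 14 passed the filter, and 5 of these had a slope on Arntl past the adjusted p of 0.05, of which 4 are described. Over all genes 0.448% had such a slope in either direction. Tef fell with Arntl (slope -0.68, SE 0.04, edgeR adjusted p = 3.38e-11), as did Bhlhe40 (-0.47) and Bhlhe41 (-0.63), the DEC repressors that also act on E-boxes. Nfil3 (0.87) rose with Arntl. Cry2, the paralogue of Cry1, had a slope of -0.32 (SE 0.08, edgeR adjusted p = 0.0566), opposite in sign to that of Cry1. The casein kinases Csnk1d and Csnk1e, which mark PER proteins for decay, and Rora had slopes between -0.05 and -0.03. The median slope of the 14 genes was -0.05. Apart from Tef and Nfil3, the genes of this list are named with their values seen. Between the sexes at day 14 none of the genes of the 5 lists in this and the next paragraph passed (0.0619% of all genes did), and among the largest estimates were those of Ciart (1.23), Tef (1.01) and Bhlhe41 (0.94), with edgeR adjusted p-values of 0.682 to 0.935. Ciart was not among the 14 genes above. It passed the filter on low counts only in the fit of the 6 groups of time point and sex.

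None of the 28 tested entries of 4 further lists had a slope past the threshold on Arntl or on Dbp. Over all genes 0.448% passed on Arntl and 0.408% on Dbp, so a count of 0 does not set these lists apart from other genes. These lists were clock-controlled outputs, glucocorticoid response, temperature response and immediate early genes, and Tsc22d3 stands in the first and the second. The smallest edgeR adjusted p was 0.107 for Cdkn1a on Arntl and 0.126 on Dbp. None of 39 tested markers of acinar, islet, ductal, endothelial and adipose cells, fibroblasts, macrophages and lymphocytes passed either (smallest edgeR adjusted p = 0.321 on Arntl and 0.305 on Dbp). With the same low shares of all genes, the markers are not set apart by this either.

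The spread within time points asked how far mice of the same group differed. The members' median SD of log2 CPM came to 0.70 in baseline mice (0.67 without female 4), 1.02 in day 7 mice and 0.83 in day 14 mice, against 0.23, 0.22 and 0.20 over all genes. At baseline 9 members were above the median SD of all genes, and all 10 were so at day 7 and day 14. Members among the 5% of genes with the largest SD numbered 2 at baseline, 7 at day 7 and 8 at day 14. Dbp had the largest SD of the members at day 7 (1.77), where 0.632% of genes had a larger SD, and Nr1d1 at baseline (1.18) and at day 14 (1.74, with 0.48% of genes larger). Clock had the smallest SD at day 7 (0.27) and day 14 (0.24), as at baseline (0.21).

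The larger spread at day 7 and day 14 did not pass a test. In the limma test of absolute deviations from the time point mean, no member passed in day 7 against baseline (0% of all genes passed), day 14 against baseline (0.032%) or day 14 against day 7 (0.008%). The smallest limma adjusted p was 0.135, for Per2 in day 7 against baseline. At an unadjusted p under 0.05, 3, 0 and 1 members passed, against 9.23%, 7.39% and 6.51% of all genes. The deviations of 9 members were larger at day 7 than at baseline, against 45.3% of all genes. Those of all 10 were larger at day 14 than at baseline, against 37.3% of all genes. The members move together, so these counts are not made of independent results. For Per2 the SD at baseline was 0.25, against 0.24 from counting error alone.

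**Figure D4:**
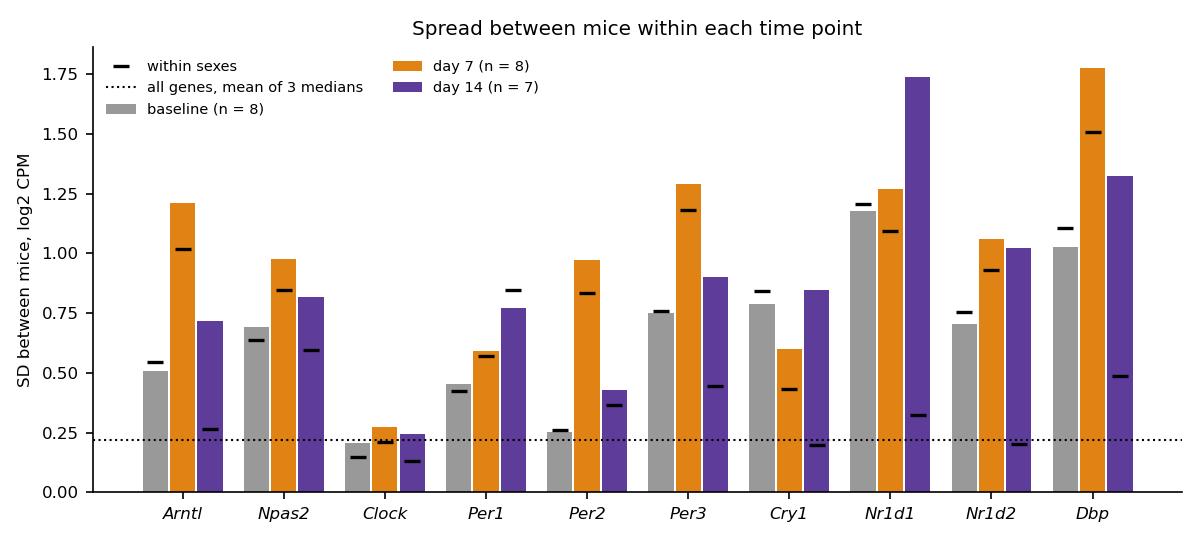
SD between mice of log2 CPM for each clock gene within baseline (grey, n = 8), day 7 (orange, n = 8) and day 14 (violet, n = 7); the black dashes give the SD within sexes and the dotted line the mean of the median SDs of all genes (0.219). At day 14 the dashes lie far below the bars for Arntl, Cry1, Nr1d1, Nr1d2 and Dbp. At baseline they lie near the height of the bars except for Clock (0.15 within sexes against 0.21).

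At day 14 most of the spread lay between the sexes for 8 of the 10 members. The share of the variance within a time point that lay between females and males had a median over the members of 8.50% at baseline, 36.7% at day 7 and 84.1% at day 14, against 7.86%, 7.75% and 11.2% over all genes. For Nr1d1 the 3 shares were 9.81%, 36.5% and 97.1%, and its SD within sexes was 1.21, 1.09 and 0.32. For Cry1 the SD within sexes was 0.84, 0.43 and 0.20. Per1 and Per2 were the exceptions at day 14, with shares of 0.0342% and 38.5%. Clock had the largest share of the members at baseline (56.8%).

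The comparison of the sexes asked whether males and females differed in the members at each time point. At day 14 males had higher Nr1d1 (log2 fold change 3.33, SE 0.90), Dbp (2.51, SE 0.97), Nr1d2 (1.89, SE 0.61) and Per3 (1.61, SE 0.68) and lower Cry1 (-1.62, SE 0.38), Npas2 (-1.32, SE 0.56), Arntl (-1.26, SE 0.48) and Clock (-0.40, SE 0.12) as estimates. In the edgeR fit of all 6 groups none of the 10 reached an adjusted p of 0.05 together with a 1.5-fold change, and 0.0619% of all genes did. The edgeR adjusted p ran from 0.167 for Cry1 to 0.988 for Per1, and 8 members had an unadjusted p under 0.05, against 6.07% of all genes. The sexes did not overlap for 4 members that were higher in males (Per3, Nr1d1, Nr1d2, Dbp) and 3 that were lower (Arntl, Clock, Cry1). Over all genes 3.64% did not overlap with males higher and 4.24% with males lower. Because the members move together, the counts of members here are not made of independent results. The same holds for the counts in the comparisons of sexes and time points below.

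The call at day 14 differed with the mice in the fit and with the test used, and the cause was not tested. In an edgeR fit of the 7 day 14 mice alone, 5 members passed: Nr1d1 (edgeR adjusted p = 1.46e-07), Nr1d2 (8.95e-07), Cry1 (7.93e-05), Arntl (0.000392) and Dbp (0.0235), while 0.226% of all genes did. The fold changes were nearly the same as in the fit of all groups (3.34 for Nr1d1 and -1.61 for Cry1). DESeq2 on all groups called 2 members, Nr1d1 (DESeq2 adjusted p = 0.0122) and Cry1 (0.0194), with 0.16% of all genes called. Without baseline male 8, edgeR called Cry1 in the fit of all groups (edgeR adjusted p = 0.0188).

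**Figure D5:**
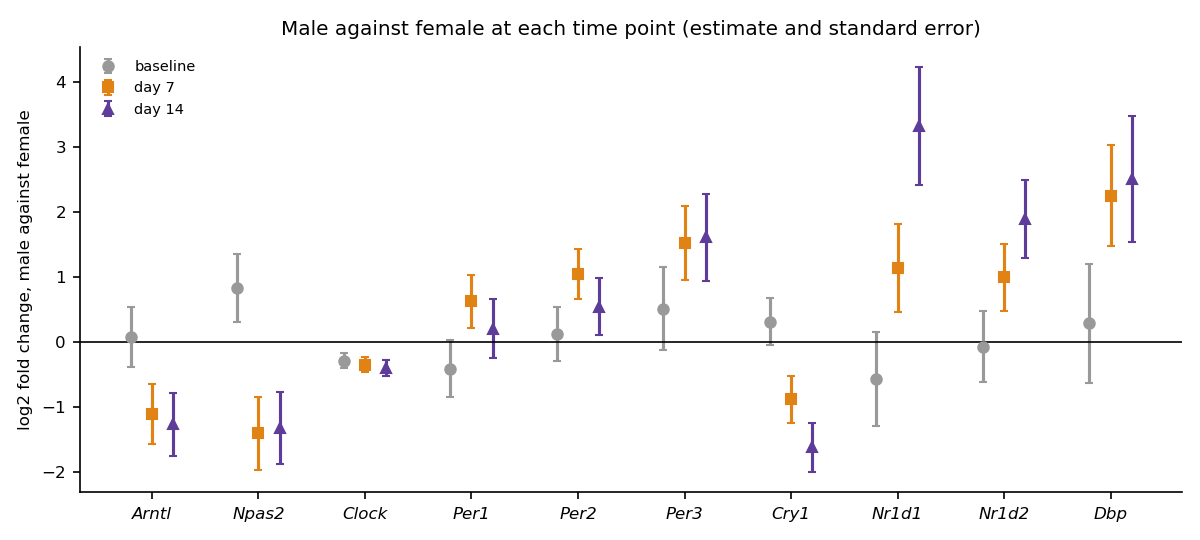
Log2 fold change of males against females for each clock gene at baseline (grey circles), day 7 (orange squares) and day 14 (violet triangles), with bars of 1 standard error from the edgeR fit of all 6 groups. Baseline values lie between -0.56 and 0.84, and at day 7 and day 14 the values of Arntl, Npas2, Clock and Cry1 are below 0 and those of the other members above it.

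At baseline none of the 10 members passed between the sexes, as 0.0696% of all genes did, and 1 member had an unadjusted p under 0.05, against 6.11% of all genes (edgeR; smallest adjusted p 0.725, for Clock). Without female 4 the count was again 0 (smallest edgeR adjusted p 0.773). No member was without overlap at baseline, where 1.4% of all genes did not overlap with males higher and 1.95% with males lower. At day 7 no member passed (0.0619% of all genes; smallest edgeR adjusted p 0.510, for Clock), 7 had an unadjusted p under 0.05 (6.41% of all genes) and none was without overlap (1.94% of all genes with males higher, 1.43% with males lower). Day 7 female 12 was the mouse that joined the males, with an Nr1d2 of 813 and an Arntl of 75.0, and day 7 male 13 joined the females, with 279 and 164.

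The test of the difference itself, the interaction of sex with time, called no member. All genes passed at 0.00773% in day 7 against baseline, at 0% in day 14 against baseline and at 0% in day 14 against day 7, by the edgeR adjusted p alone. Day 14 against baseline gave estimates of 3.89 (SE 1.16) for Nr1d1, -2.16 (SE 0.77) for Npas2 and -1.93 (SE 0.53) for Cry1, and day 7 against baseline gave 1.70 (SE 0.99), -2.24 (SE 0.77) and -1.19 (SE 0.51). At an unadjusted p under 0.05, 2, 4 and 0 members passed in these 3 interactions, against 5.45%, 3.66% and 4.62% of all genes.

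Clock, the least variable member, was the only one to pass the edgeR adjusted p between the sexes over all time points. Females had 1151, 1237, 1232 and 1027 normalised counts at baseline and males 833, 1066, 1017 and 886. At day 7 they were 1018, 918, 1200 and 1299 in females and 989, 947, 787 and 745 in males, and at day 14 they were 1201, 1126 and 1038 in females and 743, 861, 863 and 946 in males. The sexes overlapped at baseline and day 7 and not at day 14. In a fit over all mice with the time point as covariate, which was added after the data had been seen, males were lower by a log2 fold change of -0.34 (SE 0.06, edgeR adjusted p = 0.00663; at most 0.0250 when any 1 mouse, baseline female 4 included, was left out). This is under the 1.5-fold threshold, so that none of the 10 members was a DEG of sex in this fit, as 0.232% of all genes were. By the edgeR adjusted p alone Clock was the only member to pass, and 0.56% of all genes passed. With DESeq2 both Clock and Per3 passed by the adjusted p alone, and the share of all genes was not counted for that fit. At an unadjusted p under 0.05, 7 members passed, against 8.83% of all genes. Among the larger estimates that did not pass in edgeR were Dbp (1.75, SE 0.53), Per3 (1.24, SE 0.36) and Arntl (-0.75, SE 0.29). Their edgeR adjusted p-values were 0.209, 0.182 and 0.416. The estimates of Clock were -0.29 at baseline, -0.35 at day 7 and -0.40 at day 14.

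No member passed the edgeR test with TMM factors between time points when all mice were in the fit. At day 7 against baseline 5.1% of all genes were called and none of the 10, and the smallest edgeR adjusted p was 0.0669, for Npas2 (log2 fold change -1.21, SE 0.45). Npas2 was called when baseline female 4 was left out (edgeR adjusted p = 0.0341), and likewise without baseline female 3 or day 7 female 11. DESeq2 called Npas2 with all mice in the fit, and the share of all genes was not counted there. Dbp was at 1.23 (SE 0.63), Per3 at 0.73 (SE 0.43), Cry1 at -0.68 (SE 0.33) and Arntl at -0.62 (SE 0.35) in that comparison. At day 14 against baseline 0.76% of genes and no member were called, with estimates between -0.48 (Npas2) and 0.41 (Dbp) and a smallest edgeR adjusted p of 0.641. At day 14 against day 7 0.36% of genes and no member were called (smallest edgeR adjusted p 0.504). At an unadjusted p under 0.05 these 3 comparisons had 1, 0 and 0 members, against 31.6%, 13% and 13.8% of all genes. Of the 39 tested cell type markers 15 rose and 4 fell at day 7 against baseline, with all 6 fibroblast markers and 4 of 5 macrophage markers among those that rose and 4 of 5 acinar markers as those that fell. Their part in the members' values was not tested.

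The day 7 values depended on the scaling. With total counts in place of TMM factors the median log2 fold change of all genes moved by 0.46 at day 7, and 30.5% of all genes and 4 members (Per2, Per3, Nr1d2 and Dbp) were called higher, while 0.184% of all genes and no member were called lower. With TMM factors 469 genes were called higher and 168 lower. Relative to that median, Dbp was at 1.16 and Per3 at 0.68, close to the TMM values. The estimates of Clock (0.36), Per1 (0.45) and Nr1d1 (0.34) turned positive under total counts and were below the median of all genes.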

How the data were processed

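RNA-seq counts of 23 mice were used. Per the labels and the study's methods, the authors depleted total RNA of ribosomal RNA, built stranded libraries and sequenced both ends. Quality was read with FastQC, adapters were cut with Trim Galore and cutadapt, and STAR 2.5.2a (mm10) and featureCounts gave the counts. The annotation and the strand setting of the counting are not given in the sources used here. The deposited values are whole counts per gene symbol, from 7059890 to 9567446 per mouse, and no column was left out. A day 14 female, mouse 20, was not analysed here. Groups were taken from the labels, each sample being 1 mouse. A floor of 3 counts is 3.14e-05% to 4.25e-05% of a library, and it covers counting error only.

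TMM factors lay between 0.767 and 1.41. Genes kept by filterByExpr went into robust quasi-likelihood F tests of edgeR 4.0.16, run in R 4.3.3 with limma 3.58.1. Sexes and their interaction with time came from a fit of the 6 groups (12933 genes). Time points came from a fit with sex as covariate (12500 genes). Slopes came from a fit with the time point and the log2 CPM of Arntl or Dbp (prior count 2). Spread was compared with limma on absolute deviations of log2 CPM from the time point mean. Benjamini-Hochberg adjustment covered all genes of a fit. A gene was called at an adjusted p of at most 0.05 and, between groups, a fold change of at least 1.5; slopes, spread and interactions had no fold limit. Standard errors were derived from the F statistic and restate the test. Permutation tests of correlations were two-sided, exact within 7 or 8 mice, with 100000 draws elsewhere that kept mice within the groups centred on. Their p-values were not adjusted for the number of relations. RPKM used the union of exons in GENCODE vM21.

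The authors' own test was DESeq2; here DESeq2 1.42.0 was an alternative, with other scalings, filters, prior counts (0.5), centrings and leaving out each mouse. Simulated data were used to try the edgeR tests of sex at day 14, of day 7 against baseline and of the slope on Arntl. The limma test of spread at day 7 against baseline was tried in the same way. The other tests were not tried on simulated data. The members, the gene lists and the tests were chosen with earlier results of these data known. Named are the members, the 4 genes of the lists with the largest sex difference at day 14, and the genes most like Arntl and Dbp; other names were chosen with their values seen. Some genes that this rule names are not reported here. Correlations between members were computed with numpy 2.4.6, with ranks from scipy 1.17.1, and drawn with matplotlib 3.10.9, in Python 3.11.15 (pandas 2.3.3). Those of Arntl and Dbp with all genes were computed in R.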

Additional observations from a re-analysis of the deposited data

Results flagged for a closer look

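Among the 80 groups of 4 to 8 mice in which the members were examined, 8 held a mouse far from the others by Dixon's ratio, which is the gap to the nearest mouse over the whole range on the log2 CPM scale. All 8 were groups of 4 mice of 1 sex (50 groups, critical ratio 0.829) and none was a whole time point (30 groups). Chance marks about 1 group in 20, and the members move together, so these groups are not independent.

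Day 7 female 12 stood apart for Cry1 (ratio 0.936, log2 CPM of 2.20 against 3.12 for the nearest female), Npas2 (0.912), Nr1d2 (0.895) and Per3 (0.867). Baseline male 8 stood apart for Cry1 (0.929, log2 CPM of 1.596 against 3.53), Per2 (0.907) and Nr1d2 (0.859). Cry1 of day 14 male 24 had a ratio of 0.885, although its log2 CPM of 2.11 lay only 0.188 below the nearest male. Xist of baseline female 4, at 2 counts against 3861 in the nearest baseline female, had a ratio of 0.887, which was computed on counts after the value had been seen. The causes were not tested.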

How the results depend on the processing

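No paired analysis was possible because each mouse has its own number and no number is shared between groups. The count of members called between the sexes at day 14 was 0, and it was 2 with DESeq2 (Cry1, Nr1d1), 5 with the day 14 mice alone and 0 to 1 when each mouse was left out, with 1 (Cry1) without baseline male 8. The count at day 7 against baseline was 0, and it was 4 with total count scaling, 1 with DESeq2 (Npas2) and 0 to 1 when each mouse was left out, with 1 (Npas2) without baseline female 3, baseline female 4 or day 7 female 11. The count of members with a slope on Arntl was 7, and it was 4 with time point and sex removed and 7 to 8 when each mouse was left out. By the adjusted p alone, sex over all time points gave 1 member (Clock) and 2 with DESeq2 (Clock, Per3). Clock stayed at or under an edgeR adjusted p of 0.0250 in all 23 fits that left out a mouse, and its log2 fold change lay between -0.37 and -0.32. Per1 turned from 0.21 to -0.28 between the sexes at day 14 without day 14 male 23 and ran up to 0.53 when other mice were left out. The fits with fewer mice set the spread from those mice, and the cause of these changes was not tested. The remaining alternatives left the members' counts within 1.5 times, 416 of 426 settings in all.

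Depth limits Npas2, which had 1 to 31 counts per mouse, and Dbp and Nr1d1 in the mice where they are low (from 7 and 9 counts). With 3 and 4 mice a group, and no record of the hour of collection, a difference between sexes at day 14 cannot be told apart from a difference in hour.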
